A study of Mus musculus with 32 samples.

Results

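Myc, a gene on mouse chromosome 15, and 4 genes that lie near it on that chromosome, Pvt1, Lratd2, 9930014A18Rik and Trib1, were followed array by array through 32 neurosphere cultures derived from experimental mouse brain tumours. These 5 genes, out of 19938 with a level on the arrays, were chosen by name and by place: Myc itself and genes beside it. They were picked with results of these arrays already known, so their own levels are given below as a description without tests. The question they address is whether genes around Myc change together with it or whether Myc changes without them.

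All cultures came from Trp53-deficient cells of strain B6;129-Trp53tm1Brd, taken from the wall of the lateral ventricle of postnatal mice and grown as floating neurospheres. The cells were given oncogenes and transplanted into the brain, and tumour cells that still carried the transgene and its fluorescent marker were sorted and cultured again. The 8 groups differed in the genes overexpressed, and every group, including those used here as the reference of a comparison, lacked intact p53. HRAS alone (n = 5) and HRAS with Bmi1 (n = 2) had given tumours labelled glioma. MYC alone (n = 6), MYC with Ezh2 (n = 5) and MYC with Bmi1 (n = 3) had given tumours labelled PNET, a primitive neuroectodermal tumour. HRAS and MYC introduced together (n = 7) had given tumours labelled AT/RT-like, after the atypical teratoid rhabdoid tumour. In 2 further groups the second oncogene was added to cells of an established tumour, either MYC after HRAS (n = 2, called HRAS then MYC) or HRAS after MYC (n = 2, called MYC then HRAS), and secondary tumours were grown. The sources used here do not name the promoter that drove the transgenes, the age beyond "postnatal" or the number of animals behind each culture. The labels do not say whether replicates were separate tumours, so p-values measure the spread between these arrays, which may be technical.

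MYC is a transcription factor that binds DNA with its partner MAX at the sequence CACGTG, the E-box, and raises genes for ribosome production, nucleotide synthesis and growth. Myc itself is switched on by growth factor and RAS signalling, and both its RNA and its protein are short-lived. The gene sits in a region with few other protein-coding genes, followed by Pvt1, which makes a long noncoding RNA, and the region is a frequent site of copy number gain in tumours, medulloblastoma among them. Trib1, farther off, encodes a Tribbles pseudokinase that brings substrates such as C/EBPα to the ubiquitin ligase COP1 and binds MEK1. Lratd2 encodes a protein with an LRAT-type domain, and 9930014A18Rik is named only by its cDNA clone.

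In RefSeq gene order (assembly GRCm38.p6), Pvt1 is the first gene after Myc. 9930014A18Rik and Lratd2 lie on the other side, 9 and 10 RefSeq genes away, and Trib1 lies 25 RefSeq genes away on that side. Counting genes measured on the arrays, 9930014A18Rik is 2, Lratd2 3 and Trib1 5 places from Myc, because A1bg and 4933412E24Rik come between. Levels are log2 values after RMA, a normalization that sets all arrays to a common distribution. 1 unit is therefore a doubling, and the middle gene of the arrays had a mean of 6.36. A level reflects both how much RNA there is and how well its probes bind, so levels of different genes are not set against each other.

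Myc was high in the HRAS cultures and low in every culture that carried a MYC transgene. The 5 HRAS arrays read 11.88, 12.85, 10.92, 10.44 and 10.71 for replicates 1 to 5, and the HRAS+Bmi1 arrays read 10.38 and 10.87. These 7 arrays were the only ones of the 32 above 10, and none of the others overlapped them. The HRAS then MYC arrays read 8.25 and 7.49, and the MYC then HRAS arrays 7.46 and 7.76. HRAS+MYC arrays ran from 7.24 through a median of 7.78 to 7.96, and MYC arrays from 6.12 through 7.04 to 8.23. The MYC+Ezh2 arrays read 7.41, 7.07, 7.11, 6.83 and 6.43, and the MYC+Bmi1 arrays 6.30, 6.68 and 6.34. By group means the order was HRAS (11.36 ± 0.995, SD, n = 5), HRAS+Bmi1 (10.62 ± 0.345, n = 2), HRAS then MYC (7.87 ± 0.537, n = 2), HRAS+MYC (7.66 ± 0.297, n = 7), MYC then HRAS (7.61 ± 0.211, n = 2), MYC (7.00 ± 0.737, n = 6), MYC+Ezh2 (6.97 ± 0.366, n = 5) and MYC+Bmi1 (6.44 ± 0.21, n = 3). HRAS and HRAS+Bmi1 overlapped each other, a gap followed, and each of the 6 groups with MYC overlapped its neighbour in this order. In such bulk samples fewer cells of a type and less RNA per cell cannot be told apart. The labels do not state which species the MYC transgene came from, and whether the Myc probe set also reads it was not tested.

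**Figure D1:**
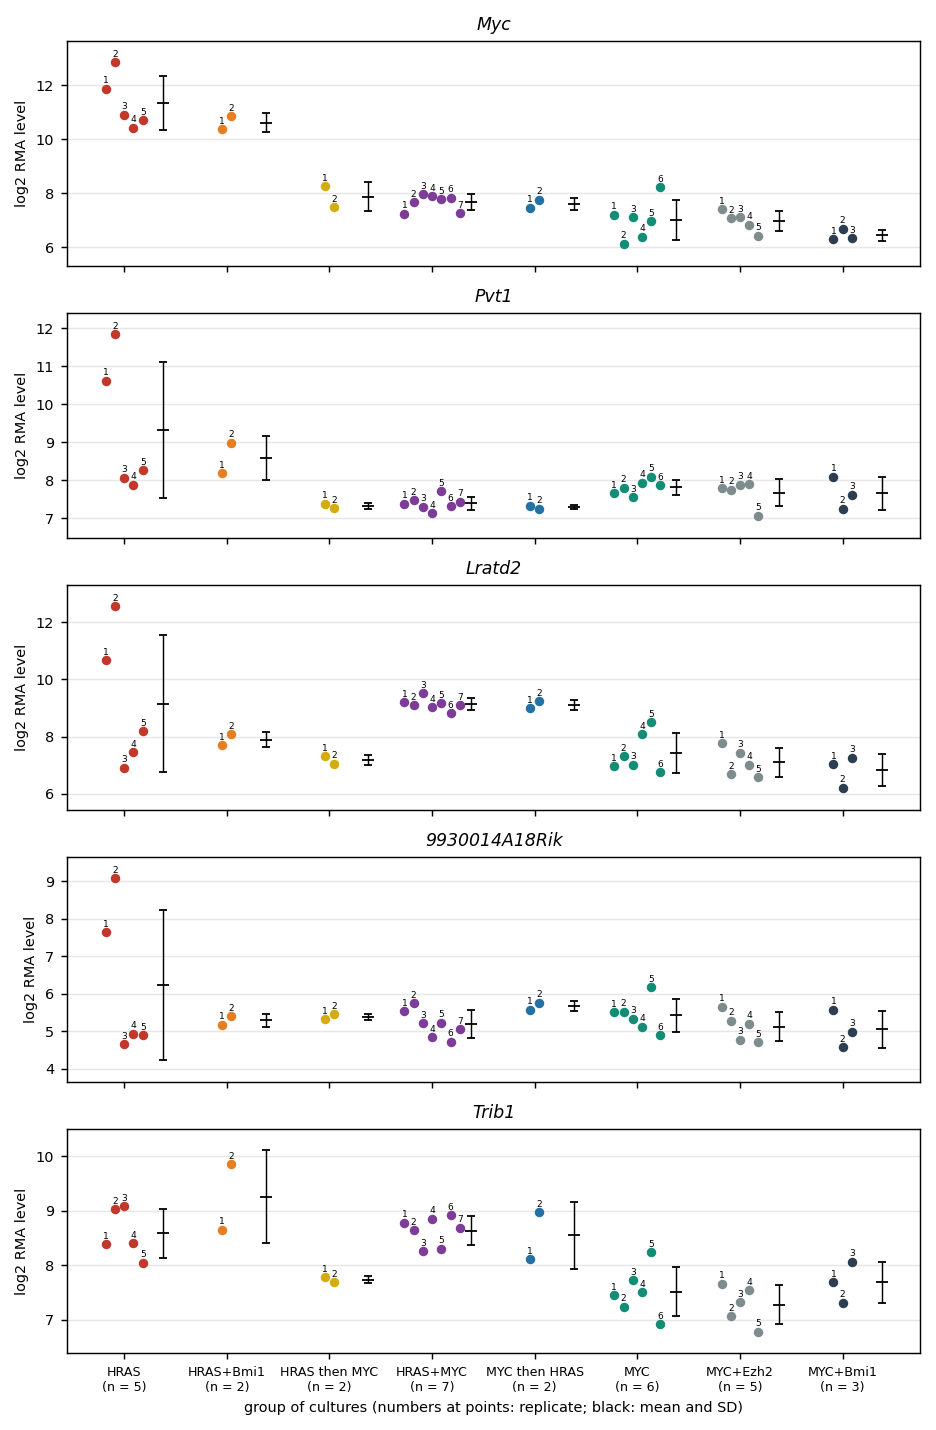
Level of Myc, Pvt1, Lratd2, 9930014A18Rik and Trib1 (one panel each, log2 RMA level on the vertical axis) on each of 32 arrays, grouped by the oncogenes overexpressed, with replicate numbers at the points and the group mean and SD in black. Myc is above 10 on all HRAS and HRAS+Bmi1 arrays, while Pvt1, Lratd2 and 9930014A18Rik reach 10.62, 10.67 and 7.64 on HRAS replicate 1 and 11.84, 12.55 and 9.08 on HRAS replicate 2.

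The mean difference in Myc between HRAS and MYC cultures was 4.35, a 20.4-fold difference, and 3.68 without HRAS replicates 1 and 2, with no overlap either way. Myc was lower in HRAS+MYC than in HRAS cultures by a log2 difference of -3.70 (-3.03 without those 2 arrays). It was also lower after MYC was added to HRAS tumour cells, by -3.49 (-2.82 without them). Both HRAS then MYC arrays thus read below every HRAS array on the Myc probe set. As whether that set reads the MYC transgene was not tested, the total of Myc and transgene RNA is not known. Adding HRAS to MYC cells came with a difference of 0.60, and introducing both together with 0.66, and in both cases the arrays overlapped those of MYC alone. MYC+Ezh2 and MYC+Bmi1 differed from MYC by -0.03 and -0.57, with overlapping arrays.

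Pvt1 separated the HRAS arrays from each other. HRAS replicates 1 and 2 read 10.62 and 11.84, while replicates 3, 4 and 5 read 8.07, 7.88 and 8.27. The HRAS+Bmi1 arrays read 8.19 and 8.99. HRAS then MYC read 7.39 and 7.27, MYC then HRAS 7.34 and 7.25, and HRAS+MYC ran from 7.15 through 7.39 to 7.71. MYC arrays ran from 7.56 through 7.84 to 8.10, the MYC+Ezh2 arrays read 7.79, 7.76, 7.89, 7.90 and 7.07, and the MYC+Bmi1 arrays 8.10, 7.25 and 7.62. HRAS stood first by its mean (9.34 ± 1.78), and the 3 HRAS arrays other than replicates 1 and 2 averaged 8.07 ± 0.191. Behind HRAS and HRAS+Bmi1 (8.59 ± 0.57), the order was MYC (7.82 ± 0.196), MYC+Ezh2 (7.68 ± 0.348), MYC+Bmi1 (7.66 ± 0.424), HRAS+MYC (7.40 ± 0.175), HRAS then MYC (7.33 ± 0.0851) and MYC then HRAS (7.29 ± 0.0579). HRAS+Bmi1 and MYC did not overlap, and the other neighbours in that order did. The difference between HRAS and MYC was 1.51 with overlapping arrays, 0.89 without HRAS replicate 2, and 0.25 without HRAS replicates 1 and 2 together. Against HRAS, Pvt1 was lower without overlap in HRAS+MYC (-1.94) and HRAS then MYC (-2.003), and it was still lower there without HRAS replicates 1 and 2, by -0.68 and -0.74. A second Pvt1 probe set stayed between 2.13 and 2.69 on all 32 arrays and did not follow the first (r = 0.0617).

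Lratd2 showed the same pair of high arrays and, in addition, a group pattern of its own. The HRAS arrays read 10.67, 12.55, 6.92, 7.45 and 8.19, so replicates 1 and 2 lay above every other array of the series. HRAS+Bmi1 arrays read 7.70 and 8.09, and HRAS then MYC arrays 7.31 and 7.05. HRAS+MYC arrays ran from 8.83 through 9.10 to 9.52, and MYC then HRAS arrays read 8.99 and 9.24. MYC arrays ran from 6.76 through 7.17 to 8.51, with replicates 4 and 5 the highest at 8.08 and 8.51. MYC+Ezh2 arrays read 7.77, 6.69, 7.44, 7.02 and 6.57, and MYC+Bmi1 arrays 7.04, 6.21 and 7.26. Every HRAS+MYC and MYC then HRAS array was therefore above every MYC array, by 1.69 and 1.67 on average. HRAS+MYC and HRAS cultures had similar means (difference -0.02), whereas without HRAS replicates 1 and 2 the HRAS+MYC arrays were higher by 1.61 with no overlap. By group means the order was HRAS (9.16 ± 2.38), HRAS+MYC (9.13 ± 0.21), MYC then HRAS (9.12 ± 0.177), HRAS+Bmi1 (7.90 ± 0.274), MYC (7.44 ± 0.7), HRAS then MYC (7.18 ± 0.182), MYC+Ezh2 (7.10 ± 0.505) and MYC+Bmi1 (6.84 ± 0.552). The gap between MYC then HRAS and HRAS+Bmi1 was the only one in that order whose 2 groups did not overlap. A second Lratd2 probe set followed the first with r = 0.974 over 32 arrays and showed the same pair, with 10.22 and 11.60 on HRAS replicates 1 and 2 and 6.22, 6.72 and 7.12 on the others. On it MYC replicate 5 (7.95) exceeded HRAS+MYC replicates 2, 3 and 4 (7.89, 7.67 and 7.70) and MYC then HRAS replicate 1 (7.93), so the separation from all MYC arrays held on the first set only.

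9930014A18Rik was low on nearly all arrays and high on the same pair. HRAS replicates 1 and 2 read 7.64 and 9.08, and replicates 3, 4 and 5 read 4.66, 4.94 and 4.90. The other 27 arrays lay between 4.58 and 6.19, the highest of them being MYC replicate 5. HRAS+Bmi1 read 5.17 and 5.41, HRAS then MYC 5.33 and 5.45, and MYC then HRAS 5.58 and 5.76. The HRAS mean of 6.25 ± 2.0 was the highest of the 8, and the other group means ran from 5.05 ± 0.506 in MYC+Bmi1 to 5.67 ± 0.128 in MYC then HRAS, with overlapping neighbours. HRAS minus MYC was 0.81, with overlap. That difference became 0.46 without HRAS replicate 1, 0.10 without HRAS replicate 2 and -0.60 without both, so its sign rested on those arrays.

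Trib1 did not share the pair of high arrays. The HRAS arrays read 8.39, 9.03, 9.09, 8.41 and 8.05, the HRAS+Bmi1 arrays 8.65 and 9.86, and the MYC then HRAS arrays 8.12 and 8.98. HRAS+MYC arrays ran from 8.26 through 8.69 to 8.92, and MYC arrays from 6.92 through 7.48 to 8.24. HRAS then MYC arrays read 7.78 and 7.70, MYC+Ezh2 arrays 7.67, 7.07, 7.33, 7.54 and 6.78, and MYC+Bmi1 arrays 7.69, 7.31 and 8.07. The cultures with an HRAS transgene were thus the higher ones, apart from HRAS then MYC. HRAS+MYC exceeded MYC by 1.12 with no overlap, and HRAS exceeded MYC by 1.07 (1.00 without HRAS replicates 1 and 2), with the arrays overlapping through MYC replicate 5. MYC then HRAS exceeded MYC by 1.03, or by 0.60 without its replicate 2. HRAS then MYC was below HRAS by -0.85 with no overlap. The order of means was HRAS+Bmi1 (9.26 ± 0.854), HRAS+MYC (8.64 ± 0.26), HRAS (8.59 ± 0.449), MYC then HRAS (8.55 ± 0.609), HRAS then MYC (7.74 ± 0.0608), MYC+Bmi1 (7.69 ± 0.377), MYC (7.52 ± 0.448) and MYC+Ezh2 (7.28 ± 0.357). Of those neighbours, the arrays of MYC then HRAS and HRAS then MYC were the only ones that did not overlap.

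The members with no overlap between arrays numbered few in each comparison, and the counts are set beside the share of all 19938 genes that did the same. Since the members were chosen with these values known, nothing is read from the counts. In HRAS against MYC 1 member of 5 was higher (8.88% of all genes were), and in HRAS+MYC against MYC 2 were higher (7.35%). Against HRAS, 2 were lower in HRAS+MYC (7.12%) and 3 in HRAS then MYC (12.4%). In MYC then HRAS against MYC 1 was higher (14.9%) and 1 lower (13.1%). No member was free of overlap in MYC+Ezh2 against MYC (0.958% of genes in either direction), MYC+Bmi1 against MYC (4.09%) or HRAS+Bmi1 against HRAS (22.7%). The comparisons share arrays and are not independent of each other.

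The arrays of HRAS replicates 1 and 2 were then read gene by gene along the chromosome, each level minus the median of the 5 HRAS arrays. On replicate 1 the difference was 2.48 for Lratd2, 2.70 for 9930014A18Rik, 0.96 for Myc and 2.35 for Pvt1. On replicate 2 it was 4.36, 4.14, 1.93 and 3.57 for the same genes. The genes next to the block, and most beyond them, differed less. 4933412E24Rik differed by 0.08 and -0.17, Trib1 by -0.02 and 0.62, and Nsmce2 by -0.08 and -0.01, while on the other side Macroh2a3 differed by 0.00 and 0.20. A1bg, between 9930014A18Rik and Myc, differed by 0.00 and 0.24, and its mean of 4.21 over the 32 arrays lies below that of the middle gene, as do those of 4933412E24Rik (4.88) and Macroh2a3 (5.41). The well-detected genes on either side, Washc5 (9.75 on average) and Cyrib (9.75), differed by 0.04 and -0.01 and by 0.00 and 0.15. Farther out Asap1 differed by -0.51 and 0.13 and Mtss1 by -0.41 and -0.54. Adcy8 differed by 1.46 on replicate 1, more than Myc there, but by 0.00 on replicate 2, and by 0.98 on replicate 5. The genes high on both arrays thus ran from Lratd2 to Pvt1, without the low gene A1bg among them.

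**Figure D2:**
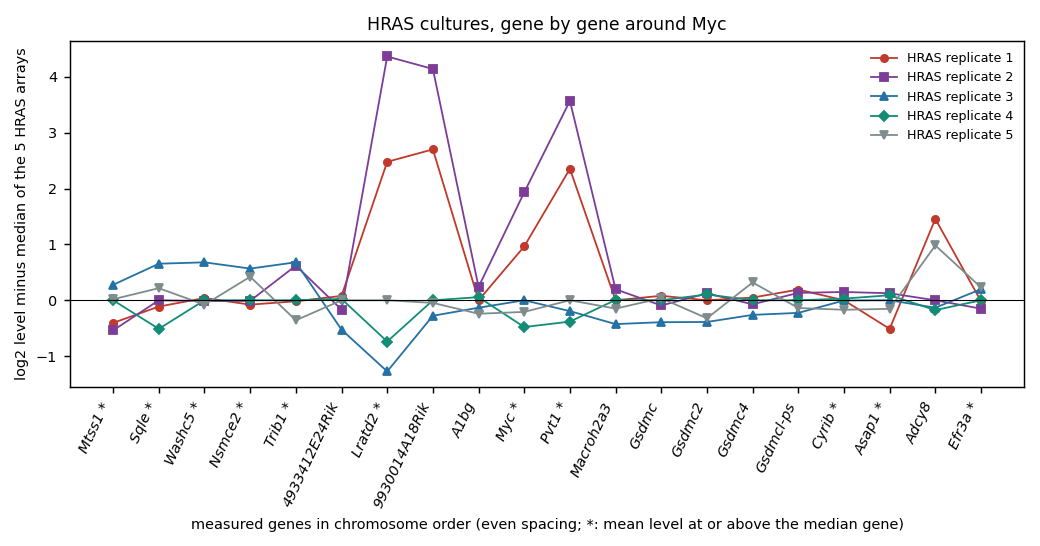
Difference of each of the 5 HRAS arrays from the median of the HRAS arrays (log2, vertical axis) for measured genes in chromosome order around Myc, evenly spaced, with an asterisk on genes whose mean level is at or above that of the middle gene. Lratd2, 9930014A18Rik, Myc and Pvt1 stand 0.96 to 2.70 above the median on replicate 1 and 1.93 to 4.36 above it on replicate 2, and beyond Lratd2 and Pvt1 the highest point is Adcy8, at 1.46 on replicate 1.

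These differences were among the largest of the whole array. On HRAS replicate 1, 9930014A18Rik ranked 4, Lratd2 7, Pvt1 12 and Myc 108 among 19938 genes by the height above the group median. On replicate 2 Lratd2 ranked 2, 9930014A18Rik 4, Pvt1 5 and Myc 38. Genes at least 1 unit above the group median numbered 99 (0.497%) on replicate 1 and 168 (0.843%) on replicate 2. The arrays with many more such genes were HRAS replicate 3 (641) and MYC replicates 4 (938) and 5 (685). HRAS replicates 1 and 2 were the most alike of the HRAS arrays, with r = 0.988 across genes, which are not independent replicates, and 0.961 to 0.977 for the other pairs. The labels do not say whether this pair came from the same tumour or culture.

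For Pvt1, Lratd2 and 9930014A18Rik, how far they followed each other depended on the same pair. Over 32 arrays Myc and Pvt1 correlated with r = 0.74, Pvt1 and Lratd2 with 0.59, Pvt1 and 9930014A18Rik with 0.84, and Lratd2 and 9930014A18Rik with 0.74. Myc reached 0.50 with Lratd2 and 0.50 with 9930014A18Rik. After subtraction of group means, Pvt1 and Lratd2 reached 0.92 and Pvt1 and 9930014A18Rik 0.93. Over the 30 arrays without HRAS replicates 1 and 2, the raw values were -0.17 for Pvt1 and Lratd2, 0.11 for Pvt1 and 9930014A18Rik, 0.32 for Lratd2 and 9930014A18Rik, and 0.51 for Myc and Pvt1. Over these 30 arrays Myc had 0.10 with Lratd2 and -0.23 with 9930014A18Rik. Lratd2 and Trib1 did not depend on HRAS replicates 1 and 2, with 0.61 over 32 and 0.64 over 30 arrays. After group means were subtracted, Lratd2 and Trib1 had 0.30 over 32 arrays. Trib1 followed Myc with r = 0.58 over 32 and over 30 arrays, and with 0.16 after group means were subtracted. All arrays share one normalization and fall into the 8 groups, so these values describe the arrays and carry no p.

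**Figure D3:**
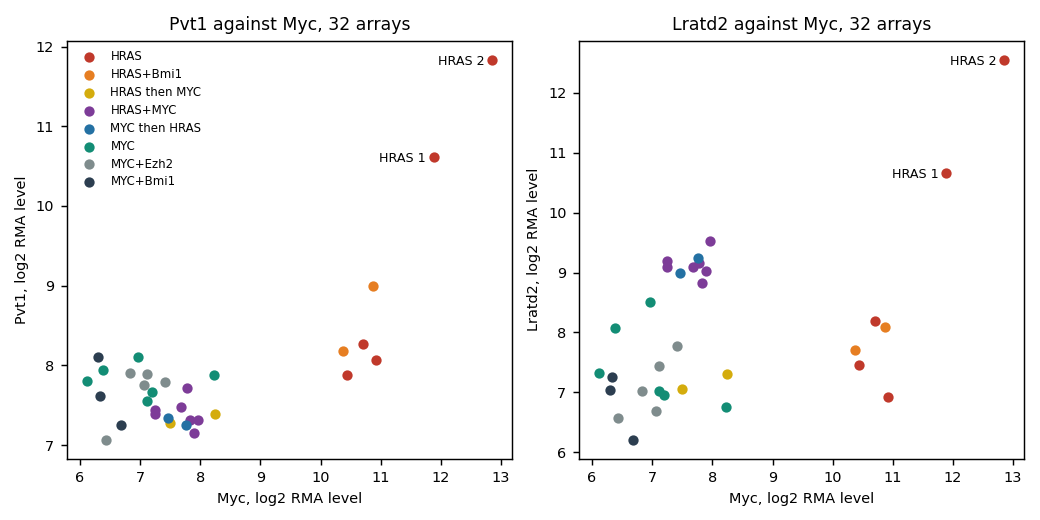
Pvt1 (left) and Lratd2 (right) against Myc, all as log2 RMA levels, for 32 arrays coloured by group. HRAS replicates 1 and 2 lie apart at the top right of both panels, while the other HRAS and the HRAS+Bmi1 arrays combine high Myc with Pvt1 levels of 7.88 to 8.99.

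The 40 measured genes nearest to Myc, 20 on each side without the 5 members, were tested in the limma fit of all 19938 genes, with Benjamini-Hochberg adjustment and a threshold of 0.05. In HRAS against MYC 7 of the 40 were higher and 4 lower, 27.5% of them, beside 33.4% of all genes. Their median difference was 0.02, beside -0.03 for all genes. Ndrg1, a gene induced by hypoxia and differentiation, rose by 2.90 ± 0.457 (SE, limma adjusted p = 1.17e-05) from 7.58 to 10.48, with no overlap between the arrays. Ccn4, a secreted WNT-inducible matricellular protein, rose by 1.41 ± 0.184 (7.42e-07), and St3gal1, a sialyltransferase, by 1.68. Tmem71 rose by 1.15 and Asap1, a regulator of ARF GTPases, by 0.79. Zhx1, a zinc finger and homeobox protein, was lower, with a difference of -1.23 ± 0.257 (limma adjusted p = 0.000387). Counted without the members, the genes called lay at places 4 to 20 after Myc and 5 to 19 before it. The one at place 4 after Myc read only 3.02 in HRAS and 2.75 in MYC, below the middle gene (6.36). None was among the nearest 3 on either side. Of these, only Nsmce2 (9.63) had a mean above that of the middle gene, so low signal could hide a change in the others.

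Between HRAS+MYC and MYC, 4 neighbours were higher with HRAS and 5 lower, 22.5% beside 34.2% of all genes. Ndrg1 rose by 3.49, Fer1l6 by 0.97 and Efr3a by 0.80. Mtss1, which binds actin and membranes, changed by -1.31 and Fbxo32, the ubiquitin ligase atrogin-1, by -1.15. Phf20l1, a chromatin reader, changed by -0.75. In MYC then HRAS against MYC 4 were higher and 1 lower, 12.5% beside 20.4%. Ndrg1 rose there by 3.63, Fer1l6 by 0.88, Efr3a by 0.97 and Anxa13 by 0.44, and Mtss1 changed by -1.64. The calls of Efr3a and Anxa13 in that comparison were lost without MYC then HRAS replicate 2, which left 1 array in that group. Anxa13 was also lost without MYC then HRAS replicate 1 and without MYC replicate 2, 4 or 5.

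Between HRAS+MYC and HRAS, 2 neighbours were higher with MYC and 8 lower, 25% beside 24.7% of all genes. Fbxo32 changed by -1.96, Ccn4 by -1.43, Mtss1 by -1.07 and Asap1 by -0.89. St3gal1 (-1.12, limma adjusted p = 0.033) and Adcy8, an adenylyl cyclase (-1.03, 0.0346), were close to the threshold. They fell beyond it without HRAS replicate 5 and under other omissions. Without HRAS replicate 5, 6 of the 40 were called, beside 4335 of 19938 genes. In HRAS then MYC against HRAS none was higher and 2 were lower, 5% beside 12.5%. Fbxo32 changed there by -2.63 and St3gal1 by -1.88. St3gal1 was lost without HRAS replicate 5 and without either HRAS then MYC array, which left 1 array in that group. Over single omissions its difference ran from -2.32 to -1.43. In HRAS+Bmi1 against HRAS Washc5 (0.96) and Rnf139 (0.59) were called, 5% beside 5.91%, and none of 40 without HRAS+Bmi1 replicate 2. Without HRAS replicate 2, 4 or 5, 1 of 40 was called there, beside 1085, 852 and 951 of 19938 genes. Without HRAS replicate 3, 5 of 40 were called, beside 1801 genes. With all arrays 1178 genes were called, so the calls over all genes changed as well. MYC+Ezh2 and MYC+Bmi1 against MYC gave 0 called neighbours by limma, beside 0.246% and 0.15% of all genes, and 5 and 4 of the 40 at an unadjusted p under 0.05. Without MYC+Ezh2 replicate 1, or MYC+Bmi1 replicate 1, 1 of 40 was called in the respective comparison. Of all 19938 genes, 233 and 234 were called under these omissions, beside 49 and 30 with all arrays.

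**Figure D4:**
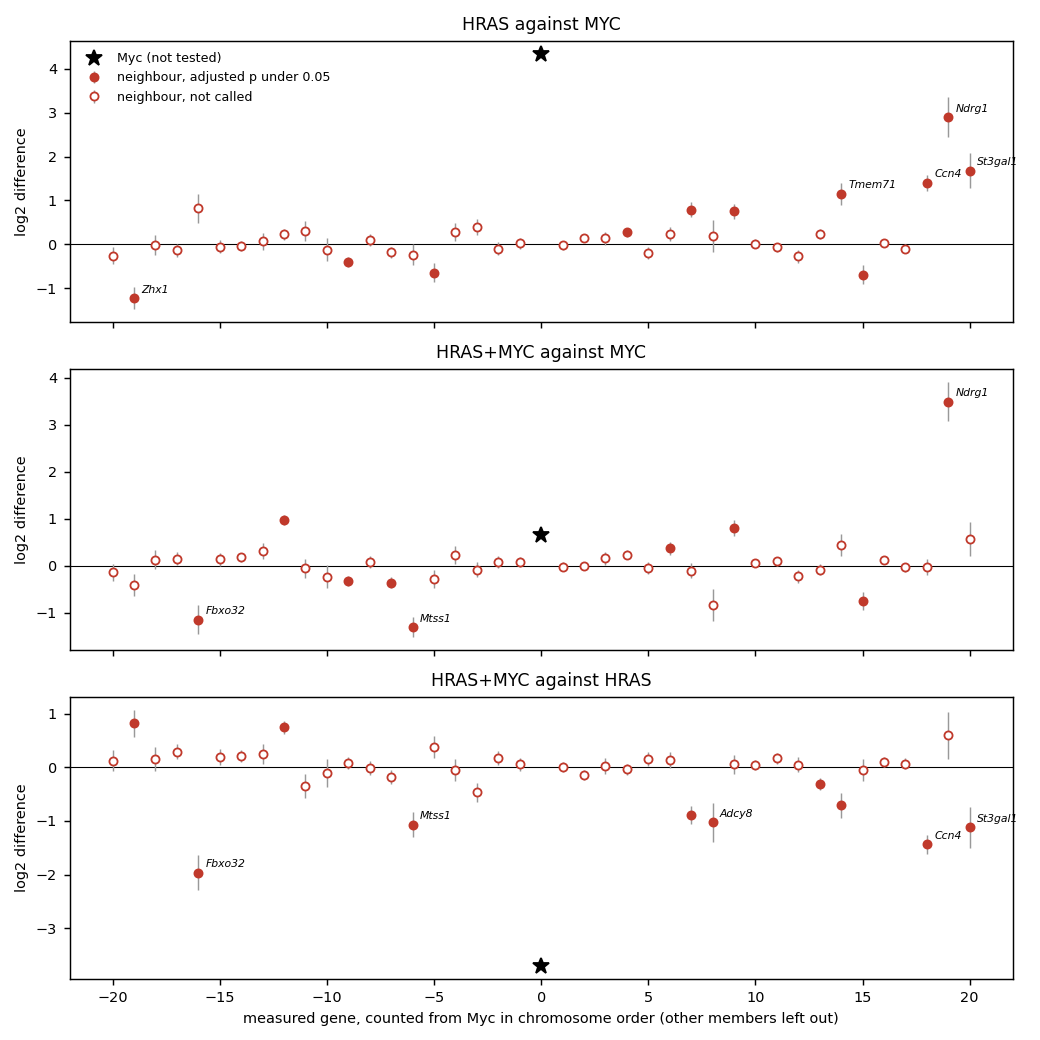
Difference between group means (log2, vertical axis, bars of 1 SE of the limma fit) for the 40 measured genes nearest Myc in 3 comparisons, by place from Myc along the chromosome, with filled points for an adjusted p under 0.05 and Myc itself as an untested star. Myc stands at 4.35, 0.66 and -3.70, and most neighbours lie near 0, apart from genes such as Ndrg1 at 2.90 in the first comparison and 3.49 in the second.

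The 40 neighbours were also summarised on each array by the median of their levels minus the median of the array's own group. This measure is centred on the group, so it lies near 0 by construction and cannot show a shift shared by a group or a block of a few genes. It ran from -0.01 to 0.00 over the HRAS arrays and from -0.09 to 0.16 over the MYC arrays. With only the 21 neighbours at or above the level of the middle gene, MYC replicate 5 reached 0.494 and MYC+Ezh2 replicate 1 -0.312, the extremes of the 32 arrays. Whether genes of such levels elsewhere shifted alike on those arrays was not tested, so these values are not particular to the region around Myc.

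The partners, targets and regulators of MYC were taken from lists of textbook members and tested in the same fit. Of 24 MYC targets, 17 were lower and 0 higher in HRAS than in MYC cultures, beside 18% of all genes lower. The Myc probe set read higher in HRAS, but the MYC cultures also carried a MYC transgene. Whether the set reads it was not tested, so the total of Myc and transgene RNA cannot be compared. The median difference of the targets was -0.79, beside -0.03 for all genes. Among those lower, Srm, spermidine synthase, differed by -1.82 ± 0.217 (limma adjusted p = 1.63e-07), Cad, the first enzyme of pyrimidine synthesis, by -1.60, Fbl, the rRNA methylase fibrillarin, by -1.19, and Polr1b, a subunit of RNA polymerase I, by -1.17. Compared with HRAS, HRAS+MYC cultures had 21 of 24 higher and 0 lower, beside 11.7% of all genes higher, with a median of 0.87 beside 0.05. Srm rose by 1.51, Cad by 1.31 and Rrp9, an rRNA processing factor, by 1.21. Tfrc, the transferrin receptor, rose by 1.29 (limma adjusted p = 0.0317), a call lost without HRAS replicate 4 or 5 and without HRAS+MYC replicate 1, 2 or 7. Compared with MYC, they had 3 higher and 0 lower, beside 15.8% of all genes higher, namely Odc1, ornithine decarboxylase (0.98), Tert, the telomerase catalytic subunit (0.98), and Ldha, lactate dehydrogenase A (0.55), with a median of 0.01 beside 0.03. HRAS then MYC cultures had 12 higher and 0 lower than HRAS (6.3% of all genes were higher). MYC then HRAS had 2 higher than MYC (9.83%), and HRAS+Bmi1 had 1 higher than HRAS (2.87%).

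Within the HRAS group, the median level of the targets was 10.56, 10.80, 10.65, 9.65 and 9.86 on replicates 1 to 5. Replicate 2 was the highest for Myc and for the targets, and replicates 4 and 5, with the lowest Myc (10.44 and 10.71), had the lowest target medians. Replicate 3, with a Myc level of 10.92, stood with replicates 1 and 2. The MYC arrays had medians from 10.52 on replicate 6 to 11.85 on replicate 5. There the order was different, as replicate 6 had the highest Myc of that group (8.23) and replicate 5 read 6.97.

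A promoter from the target list shows the E-box that MYC binds. The 300 bases around the start of Hspd1, which encodes a mitochondrial chaperone, are given from RefSeq (GRCm38.p6, chr1:55088194-55088493, minus strand, 5′ to 3′), with the letters CACGTG in capitals. Hspd1 was chosen after its values were seen.

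Hspd1: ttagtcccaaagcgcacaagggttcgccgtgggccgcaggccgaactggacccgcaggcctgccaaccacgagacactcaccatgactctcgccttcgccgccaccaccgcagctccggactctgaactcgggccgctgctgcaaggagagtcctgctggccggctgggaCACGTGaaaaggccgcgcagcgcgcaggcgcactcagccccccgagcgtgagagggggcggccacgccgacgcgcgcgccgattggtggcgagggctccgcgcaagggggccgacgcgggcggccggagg

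Hspd1 was lower in HRAS than in MYC cultures by a log2 difference of -0.76 ± 0.105 (limma adjusted p = 1.69e-06), from 12.49 in MYC to 11.73. The letters CACGTG, which read the same on both strands, occurred in 2349 of 32851 such windows (7.15%) and in those of 5 of the 18 listed targets with a window. Of those 5, Hspd1 and Wdr43 (-0.76), a ribosome biogenesis factor, were lower, and Ldha (0.15), Cdk4 (-0.11) and Eif4e (-0.02) did not pass the test.

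Of 12 genes of the MYC and MAX network, 2 were higher and 5 lower in HRAS than in MYC cultures, where 33.4% of all genes were called. Mycl, a MYC paralogue, differed by -1.35, Mxd3, a MAX-binding repressor, by -0.94, and Mlxip, a glucose-sensing relative, by -0.71. Max itself, the common partner, differed by -0.48 (limma adjusted p = 0.021). Mxd1, a MAX-binding antagonist of MYC, rose by 0.89 (limma adjusted p = 0.0337). That call was lost on omission of HRAS replicate 2, 4 or 5, and of any of MYC replicates 2, 4 and 5. When HRAS+MYC was compared with MYC, 2 were higher and 4 lower, beside 34.2% of all genes called. Mxd1 rose by 1.46 and Mlx by 0.82, while Mycl changed by -0.95 and Mycn by -0.84 (lost without MYC replicate 6). Against HRAS, 2 rose in HRAS+MYC, Mlxip by 0.45 and Mlxipl by 0.24, beside 24.7% of all genes called. Mlxipl was lost without HRAS replicate 3, 4 or 5 and without HRAS+MYC replicate 1, 3, 4, 5 or 6. The count of network genes called in HRAS against MYC was 25% of the 12 without HRAS replicate 4 or 5 and 33.3% without MYC replicate 2. Of all 19938 genes, 5985, 6032 and 6564 were called under these omissions.

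Of 9 measured genes that set the turnover of MYC protein, 2 were higher and 3 lower in HRAS than in MYC cultures, beside the same 33.4% of all genes. Skp2, an F-box protein, differed by -1.04, Huwe1, a ubiquitin ligase, by -0.54 (lost without HRAS replicate 5) and Gsk3b, the kinase that marks MYC for degradation, by -0.45, while Ppp2r5a, a PP2A subunit, rose by 0.56. Without HRAS replicate 5, 33.3% of the 9 were called, beside 6032 of 19938 genes. Among HRAS+MYC cultures 2 rose relative to MYC, Aurka, a mitotic kinase (0.66), and Ppp2r5a (0.49), and Gsk3b changed by -0.50. In that comparison 34.2% of all genes were called. Relative to HRAS, Skp2 rose by 0.69 and Stub1, a chaperone-linked ligase, changed by -0.42, beside 24.7% of all genes called.

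Of 8 genes of the Tribbles pathway besides Trib1, 3 were higher and 2 lower in HRAS than in MYC cultures, again beside 33.4% of all genes. Map2k1, which encodes MEK1, rose by 1.14 and Cebpb, a C/EBP factor, by 1.03, while Cebpa, the C/EBP factor that Tribbles proteins target, was lower by -1.54. Trib3, a paralogue of Trib1, rose by 1.30 (limma adjusted p = 0.021), a call that failed on omission of HRAS replicate 5 and of either MYC replicate 3 or 6. From MYC to HRAS+MYC 3 rose, Trib3 by 2.08, Cebpb by 1.501 and Map2k1 by 1.13, and Fbxo32, also one of the 40 neighbours, changed by -1.15. Of all genes, 34.2% were called there. From HRAS to HRAS+MYC, where 24.7% of all genes were called, Cebpa rose by 1.37 and Acaca, acetyl-CoA carboxylase, by 0.54. Fbxo32 changed there by -1.96 and Trib2 by -1.22. Acaca was lost without HRAS replicate 4 or 5 and without HRAS+MYC replicate 1, 2 or 7, and Trib2 without HRAS replicate 1, 2 or 3 and without HRAS+MYC replicate 1, 4, 6 or 7.

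Of 11 measured regulators of Myc transcription, 1 was higher and 2 lower in HRAS than in MYC cultures, near the 33.4% of all genes called. Ctcf, an insulator protein, differed by -0.90 and Cnbp, a nucleic acid-binding protein, by -0.26, and Elk1, an ETS factor downstream of RAS, rose by 0.44 (lost without HRAS replicates 1 and 2 together). Relative to MYC, 3 were lower in HRAS+MYC, Stat3 (-0.87), Ctcf (-0.75) and Ctnnb1, β-catenin (-0.42, limma adjusted p = 0.0314, lost under 7 of the single omissions). Of all genes, 34.2% were called in that comparison. Relative to HRAS, where 24.7% of all genes were called, Ctnnb1 changed by -0.52, lost without HRAS replicate 5, Elk1 by -0.36, and Cnbp rose by 0.22. Elk1 was lost without HRAS replicate 2 or 5 or HRAS+MYC replicate 1, and Cnbp without HRAS replicate 1, 3 or 4 or HRAS+MYC replicate 5 or 6. Without HRAS replicate 5, 1 of the 11 was called in that comparison, beside 4335 of 19938 genes.

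Genes were then ranked by the likeness of their levels to those of Myc, leaving out the other 4 members, unnamed gene models, olfactory and vomeronasal receptors and small RNAs. The most alike over 32 arrays were Itih5 (r = 0.926), Nptx1 (0.917), Fam189a1 (0.909), Nox4 (0.906) and Col8a1 (0.906), none of them on chromosome 15. Without the 2 arrays farthest from the median of Myc, which were HRAS replicates 2 and 1, these values were 0.914, 0.898, 0.866, 0.864 and 0.861. The genes most opposed to Myc were Mettl5 (-0.871), Cenpx (-0.868), Ydjc (-0.856), Gtf3a (-0.848) and Ercc8 (-0.845). After group means were subtracted, the most alike were Krtap5-3 (0.698), Rgl2 (0.687), Poldip2 (0.677), Lhx9 (0.664) and Rnf151 (0.659), and none of these lay on chromosome 15. Without HRAS replicates 2 and 1 the values of this list were 0.632, 0.519, 0.512, 0.553 and 0.683, so its order depended on those arrays. Pvt1, left out of that ranking as a member, had r = 0.67 with Myc after group means were subtracted over 32 arrays, above Lhx9 and Rnf151 there. These are likenesses of level only, over arrays that fall into groups.

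The cultures were checked against lists of cell type markers. Of 9 measured neural stem and glial markers, Vim (median 13.1 over the arrays), Sox2 (10.7), Nes (9.46), Slc1a3 (8.78), Pax6 (7.94) and Msi1 (7.22) had medians above the mean of the middle gene. Olig2 (5.47), Fabp7 (5.37) and Gfap (5.18) lay below it, and Sox2 ran from 4.85 to 11.9 between arrays. In HRAS against MYC cultures 2 of the 9 were higher, Vim (2.22) and Nes (0.90), and 3 lower, Slc1a3 (-4.28), Fabp7 (-3.90) and Msi1 (-2.10). Of all genes, 33.4% were called in that comparison. The median of the group means of this list was 6.14 in HRAS, 6.16 in HRAS+MYC and 9.34 in MYC. Of 6 neuronal markers, 5 were lower in HRAS than in MYC cultures, beside 18% of all genes lower. All 6 were lower in HRAS+MYC than in MYC cultures, beside 3677 of 19938 genes. The median of the group means of these markers was 5.696 in HRAS, 5.45 in HRAS+MYC and 7.97 in MYC. In HRAS+MYC against HRAS, where Myc differed by -3.70, limma called 0 of the 6, beside 24.7% of all genes, and 1 had an unadjusted p under 0.05. Both lists thus differed between HRAS and MYC cultures, as Myc and Trib1 did, and their part in those differences was not tested. Of 7 microglia and macrophage markers, Ptprc, Aif1, Csf1r and Itgam never exceeded 5.61, while Cd68 reached 11.2. The 5 endothelial markers stayed at or below 7.50.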

How the data were processed

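RNA from each of 32 cultures was hybridised to its own whole-transcript array (Gene 1.0 ST). The deposited values are log2 levels per probe set that the authors made by RMA, and per the submitters' processing notes the software was Expression Console 1.0. They ranged from 1.44 to 14.5, with array medians from 5.59 to 5.79, and the number of arrays limits the precision. No genome build is named, so gene order was read from RefSeq (GRCm38.p6), where 99.6% of genes had a position.

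Of 35557 probe sets, 21789 had 1 symbol in the platform annotation, 1621 several and 12147 were not listed there. The 19938 genes took the probe set with the highest mean where there were several (999 genes). Groups follow the titles. limma 3.58.1 (R 4.3.3) fitted 1 mean per group over all arrays (lmFit, eBayes), with Benjamini-Hochberg adjustment over all genes, and genes were called at an adjusted p under 0.05. The script was tested on simulated data. Figures were drawn with Python 3.11.15.

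The members and the gene lists were chosen with earlier results of these data known. Named were the members, up to 6 called neighbours with the largest difference per comparison, up to 4 called genes per list in the 3 comparisons among HRAS, MYC and HRAS+MYC, and the 5 genes most like and most unlike Myc. Max, Wdr43, Cdk4, Eif4e and Hspd1, and the genes next to the block, were named after their values were seen. Alternatives changed the arrays fitted, a replicate block, the filter on low levels, the probe set rule, the variance prior and the window. Leaving out HRAS replicates 1 and 2 together, and all alternatives for the gene lists, were chosen after seeing the data.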

Additional observations from a re-analysis of the deposited data

Results flagged for a closer look

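Pvt1 on MYC+Ezh2 replicate 5 read 7.07 while the other 4 arrays of that group lay between 7.76 and 7.90. The same array was the lowest of its group for Myc (6.43), Lratd2 (6.57), 9930014A18Rik (4.72) and Trib1 (6.78). The median difference of the 40 genes nearest Myc from the group median was marked on HRAS replicate 2 (-0.0104), on HRAS+MYC replicate 6 (-0.0129) and on MYC+Ezh2 replicate 1 (0.0366). Centring on the group median puts most other arrays of these groups at or near 0, so these marks say nothing of the size of a shift. In all, 24 sets of 5 to 7 arrays were examined for an array far from the rest by Dixon's criterion, which marks about 1 in 20 sets by chance. The high Pvt1, Lratd2 and 9930014A18Rik of HRAS replicates 1 and 2 were not marked in this way, and 2 arrays shared them.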

How the results depend on the processing

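Named neighbours and list genes kept their direction in every alternative run. Among the named genes 25 of the alternatives other than single omissions and 81 of the single omissions took a call past the threshold. Leaving out HRAS replicates 1 and 2 together moved the members most: for Myc, Pvt1, Lratd2 and 9930014A18Rik, HRAS minus MYC became 3.68, 0.25, 0.0781 and -0.60, HRAS+MYC minus HRAS -3.03, -0.68, 1.61 and 0.36, HRAS then MYC minus HRAS -2.82, -0.74, -0.34 and 0.55, and HRAS+Bmi1 minus HRAS -0.0645, 0.52, 0.38 and 0.46. It also moved the network and the regulators called in HRAS+MYC against HRAS to 25% and 9.09%, where 4660 of 19938 genes were called. With the mean of the probe sets, Pvt1 became -0.99 in HRAS+MYC and -0.92 in HRAS then MYC against HRAS, since the second set stays low.

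With only genes at or above the median level, neighbours were counted over 21 genes in place of 40, beside calls among 9969 genes. The share called became 42.9% in HRAS against MYC (5449 of the 9969 were called) and 38.1% in HRAS+MYC against MYC (5036). It became 19.0% in MYC then HRAS against MYC (3412) and 9.52% in HRAS then MYC against HRAS (2371). In HRAS+Bmi1 against HRAS it became 14.3% (1021), and the network in HRAS+MYC against HRAS became 10% (3946). With only the 2 groups compared, neighbours became 7.5% in MYC then HRAS against MYC, where 2367 of 19938 genes were called. They became 2.5% in HRAS+Bmi1 against HRAS (533 of 19938). The network became 25% in HRAS against MYC (4919) and 8.33% in HRAS+MYC against HRAS (4702), and the regulators there 45.5%. With 10 genes on each side, neighbours became 15% in HRAS+MYC against HRAS, 0% in HRAS then MYC against HRAS and 10% in HRAS+Bmi1 against HRAS. With 40 on each side they became 20% in MYC then HRAS against MYC and 10% in HRAS then MYC against HRAS. The window does not change the calls over all genes. The cause of these shifts was not tested, and with the level filter or only 2 groups the calls over all genes changed as well. The limma variance prior with a trend moved no count by over 1.5 times.

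The regional medians of HRAS arrays, at or near 0, changed with the reference or window. For replicates 1, 2, 3 and 5 they were 0.0505, 0.0510, 0.152 and 0.0192 against the other groups, -0.0162, 0.276 and 0.0185 for replicates 1, 3 and 5 with well-detected genes, -0.00516 and 0.0277 for replicates 2 and 5 with 10 genes on each side, and 0 for replicate 2 with 40. With well-detected genes, MYC replicates 4, 5 and 6 became 0.233, 0.494 and -0.187, and MYC+Ezh2 replicate 1 became -0.312. Well-detected genes elsewhere were not summarised in this way.

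Leaving out each array in turn, the share of neighbours called ran from 22.5% to 30% in HRAS against MYC, 20% to 25% in HRAS+MYC against MYC, 15% to 25% in HRAS+MYC against HRAS, 7.5% to 12.5% in MYC then HRAS against MYC, 2.5% to 7.5% in HRAS then MYC against HRAS, 0% to 2.5% in both MYC+Ezh2 and MYC+Bmi1 against MYC, and 0% to 12.5% in HRAS+Bmi1 against HRAS. For the lists in HRAS against MYC it ran from 25% to 58.3% for the network and 33.3% to 66.7% for turnover, and in HRAS+MYC against HRAS from 8.33% to 25% for the network, 25% to 50% for the Tribbles pathway and 9.09% to 27.3% for the regulators. The calls over all 19938 genes ran from 5985 to 6820 in HRAS against MYC under these omissions. They ran from 6282 to 6728 in HRAS+MYC against MYC and from 4152 to 4779 in HRAS+MYC against HRAS. In MYC+Ezh2 and MYC+Bmi1 against MYC they ran from 4 to 233 and from 9 to 234. With a parent array omitted, they ran from 3808 to 4286 in MYC then HRAS against MYC. In HRAS then MYC and HRAS+Bmi1 against HRAS they ran from 1919 to 2667 and from 852 to 1801. Omitting an array from a group of 2 lowered the calls over all genes each time. Among members, 9930014A18Rik in HRAS minus MYC ran from 0.10 to 1.21, and Trib1 from 0.60 to 1.46 in MYC then HRAS minus MYC and from 0.0631 to 1.27 in HRAS+Bmi1 minus HRAS.

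Replicate numbers are shared between groups, but most same-numbered arrays did not deviate together: 11 of 79 pairs correlated above 0.1. Their correlations ran from -0.301 to 0.433 with a median of 0.0123, beside a median of -0.00229 for pairs with different numbers. The replicate block gave 25%, 20%, 20%, 10%, 5%, 0%, 0% and 5% of neighbours called in the 8 comparisons in the order above, and 8.33% of the network in HRAS+MYC against HRAS. Over all 19938 genes the block gave 6666, 6572, 4855, 3660, 2133, 9, 20 and 881 calls in that order. Signal limits the low genes A1bg, 4933412E24Rik and Macroh2a3, whose levels could hide a change. In groups of 2, an omission leaves 1 array, assumed to vary like the rest.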

Other observations

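Other arrays also held stretches of neighbouring genes with high levels. A stretch was counted where at least 4 of 5 consecutive measured genes stood 1 unit or more above the median of the array's own group, a rule chosen after the values were seen. On HRAS replicate 2 the genes Lratd2, 9930014A18Rik, Myc and Pvt1 formed the only stretch, with a median of 3.85, and replicate 1 had none, as Myc stood 0.96 above the median there. On MYC+Ezh2 replicate 2 a stretch of 11 genes on the X chromosome from Tmem29 to Huwe1 stood 2.35 above the median, and it includes the ubiquitin ligase Huwe1 of the turnover list. On MYC+Ezh2 replicate 5 there were 3 stretches on chromosome 8, of 7, 7 and 5 genes and medians of 2.03, 2.02 and 1.89, that include Cul4a, Lamp1, Tfdp1 and Cdc16. On MYC+Bmi1 replicate 2 a stretch of 6 entries on chromosome 14 was the Mir17hg cluster, a microRNA host known as a target of MYC, with a median of 1.64. HRAS replicate 3 held 7 stretches and MYC replicate 4 held 5, on arrays where many genes stood above the group median.

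Bmi1, a Polycomb protein, was combined with both oncogenes. Against the mean of its parent group, Myc was lower on all 3 MYC+Bmi1 arrays (-0.71, -0.32 and -0.67) and on both HRAS+Bmi1 arrays (-0.98 and -0.49), within the range of the parent arrays except on HRAS+Bmi1 replicate 1. The HRAS mean is raised by replicates 1 and 2, and without them the mean difference of HRAS+Bmi1 was -0.0645 and the arrays overlapped. Trib1 was higher on both HRAS+Bmi1 arrays, by 0.06 and 1.27, and on 2 of the 3 MYC+Bmi1 arrays. These differences were not tested.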
